A study of Mus musculus with 4 samples.

Results

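Embryonic and adult globin genes were examined in LSK cells of the mouse fetal liver, the fraction that lacks lineage markers, carries Sca-1 and Kit and holds blood stem cells and early progenitors. The genes were chosen by symbol from a list of 8, of which 7 had a row among the 20207 genes of the deposited tables: the embryonic genes Hbb-y, Hbb-bh1 and Hba-x, and the adult genes Hbb-b1, Hbb-b2, Hba-a1 and Hba-a2. The eighth listed gene was not analysed here. The groups were Brpf1-null and wild-type embryos at E14.5, with 2 samples of each genotype described in the labels, each a pool of LSK cells from 4 embryos, paired by number. Brpf1 encodes a chromatin reader that assembles histone acetyltransferase complexes. The labels name neither the allele nor a driver of the deletion. The 2 deposited tables, one per pair, held the same values for every gene (0 Brpf1-null and 0 wild-type values differed), so they were read as 1 library per genotype. Whether those values come from one pair of pools or from the reads of both together cannot be told from the labels or the tables. Differences between the genotypes therefore have no replicate check and no p-value.

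Hemoglobin carries oxygen in red cells as a tetramer of alpha-like and beta-like chains, each holding a heme group. The genes of each kind lie in a cluster whose members are used in turn during development. In the mouse, primitive red cells from the yolk sac use the embryonic zeta-like gene Hba-x and the embryonic beta-like genes Hbb-bh1 and Hbb-y, whereas definitive red cells made in the fetal liver use the adult alpha and beta genes. LSK cells precede red cell commitment, and the lineage antibodies used to define them are meant to remove maturing red cells.

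The sequences just upstream of the transcription starts are shown because the embryonic genes Hbb-y and Hba-x were both higher in the Brpf1-null library. Hba-x was 1.68-fold higher, and under some of the processing alternatives it was within 1.5-fold. Hba-a1 stands for the adult alpha-globin pair. The sequences are the 250 bases before the start, 5′ to 3′ in the direction of transcription, from RefSeq on GRCm38.p6. RefSeq promoters matched 4 of the 7 genes by symbol (Hbb-y, Hba-x, Hba-a1 and Hba-a2). The remaining embryonic gene, Hbb-bh1, was lower in the Brpf1-null library and had no matched promoter. The adult beta-globin gene Hbb-bs of the reference mouse genome is added for contrast. The tables use the older symbols Hbb-b1 and Hbb-b2, and no source used here says which of the present gene models each stands for. Capitals mark matches, on either strand, to 4 short motifs. CACCC is the box bound by KLF1. CCAAT is a common promoter element. GATAA is the core bound by GATA factors. TGACC is a half-site of nuclear receptors.
Hbb-y, chr7:103853208-103853457, minus strand: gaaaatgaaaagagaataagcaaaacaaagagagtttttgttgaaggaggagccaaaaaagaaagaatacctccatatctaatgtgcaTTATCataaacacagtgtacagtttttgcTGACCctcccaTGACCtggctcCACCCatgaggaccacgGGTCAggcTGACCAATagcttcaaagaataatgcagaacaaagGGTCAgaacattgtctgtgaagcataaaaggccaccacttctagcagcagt
Hba-x, chr11:32276350-32276599, plus strand: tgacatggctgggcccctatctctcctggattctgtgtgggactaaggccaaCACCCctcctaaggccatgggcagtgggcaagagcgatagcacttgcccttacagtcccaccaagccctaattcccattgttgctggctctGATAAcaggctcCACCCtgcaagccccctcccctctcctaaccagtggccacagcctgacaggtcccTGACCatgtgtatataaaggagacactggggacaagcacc
Hba-a1, chr11:32283422-32283671, plus strand: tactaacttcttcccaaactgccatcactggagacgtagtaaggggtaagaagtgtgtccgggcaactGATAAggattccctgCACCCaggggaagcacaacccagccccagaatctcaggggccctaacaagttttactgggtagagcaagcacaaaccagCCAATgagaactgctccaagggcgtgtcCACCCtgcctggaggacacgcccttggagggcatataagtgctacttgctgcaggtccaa
Hbb-bs, chr7:103827929-103828178, minus strand: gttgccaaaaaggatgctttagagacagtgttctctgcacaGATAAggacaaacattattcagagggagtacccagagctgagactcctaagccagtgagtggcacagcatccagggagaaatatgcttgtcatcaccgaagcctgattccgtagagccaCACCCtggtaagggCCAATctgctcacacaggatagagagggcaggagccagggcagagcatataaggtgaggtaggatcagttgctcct
All 4 sequences held 1 GATAA and at least 1 CACCC, motifs found in 22.6% and 52.0% of 32851 RefSeq promoters of this length. CCAAT, found in 33.8% of promoters, occurred once in Hbb-y, Hba-a1 and Hbb-bs and had 0 matches in Hba-x. TGACC had 5 matches in Hbb-y, 1 in Hba-x and 0 in Hba-a1 and Hbb-bs. Hbb-bt, the other adult beta-globin gene of the reference mouse genome, whose sequence is not printed, held 1 TGACC, 3 CACCC, 3 CCAAT and 1 GATAA. At least 1 match to TGACC occurred in 35.2% of promoters, and at least 5 in 14 promoters (0.0426%), Hbb-y included. The 5 matches in Hbb-y began 133, 122, 94, 86 and 51 bases before the start, and one overlapped the CCAAT match by shared letters. The motifs were chosen after the sequences had been read, and a match is not evidence of binding.

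The embryonic beta-like gene Hbb-y was among the genes with the highest change toward the Brpf1-null library, while the other embryonic genes differed less and in opposite directions. Hbb-y, the epsilon-like chain of primitive red cells, was at 6.69 RPKM (reads scaled by transcript length and by library size) in the Brpf1-null library and 0.546 RPKM in the wild-type library. It was thus a modestly expressed gene in the Brpf1-null library and barely detected in wild-type. The ratio was 12.2-fold, with a 95% counting interval of 6.08 to 29.8, from about 94 and 8 reads. That interval comes from the exact binomial (Clopper-Pearson) limits on the part of the gene's estimated reads found in Brpf1-null. It covers counting error only, and neither the spread between embryos nor copies of a molecule made by PCR.

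Hba-x, the zeta-like alpha chain of the embryo, was at 6.40 RPKM in the Brpf1-null library and 3.82 RPKM in the wild-type library. The ratio was 1.68-fold higher (1.21 to 2.35) on about 98 and 62 reads. Hbb-bh1, the other embryonic beta-like chain, was at 2.95 RPKM in the Brpf1-null library and 5.13 RPKM in the wild-type library. It was 1.74-fold lower in Brpf1-null (1.17 to 2.63) on about 40 and 74 reads. The embryonic genes thus did not move together. Hbb-y was 2.27 times the level of Hbb-bh1 in the Brpf1-null library, whereas in the wild-type library Hbb-bh1 was 9.39 times the level of Hbb-y. Hba-x and Hbb-y stood at similar levels per length in the Brpf1-null library, with Hba-x at 0.956 times Hbb-y, against 6.99 times Hbb-y in the wild-type library. Summed over all 3 embryonic genes, the level was 16.03 RPKM in the Brpf1-null library and 9.49 RPKM in the wild-type library.

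Both adult beta-globin genes were much lower in the Brpf1-null library. Hbb-b1, a main beta chain of definitive red cells, was at 21.3 RPKM in the Brpf1-null library and 208 RPKM in the wild-type library, 9.77-fold lower (8.67 to 11.0). By level among all genes it ranked 2286 in the Brpf1-null library and 295 in the wild-type library. Hbb-b2, the second adult beta gene, was at 7.74 RPKM in the Brpf1-null library and 43.6 RPKM in the wild-type library, 5.64-fold lower (4.59 to 6.98). Hbb-b1 was above Hbb-b2 in both libraries, by 2.75-fold in Brpf1-null and 4.76-fold in wild-type. Their read numbers, about 297 and 108 in Brpf1-null against 3080 and 647 in wild-type, assume the length of the adult transcript Hbb-bs (628 bases), since no transcript under their own symbols was matched. Reads of near copies can be divided wrongly between them or left out. The annotated adult transcripts Hbb-bs and Hbb-bt are identical at 93.1% of aligned bases, and 65.8% of the 50-base windows of Hbb-bs also occur in Hbb-bt. Hbb-y shared 0 such windows with either of them, or with Hbb-bh1, and was identical to Hbb-bs at 77.7% of aligned bases.

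**Figure D1:**
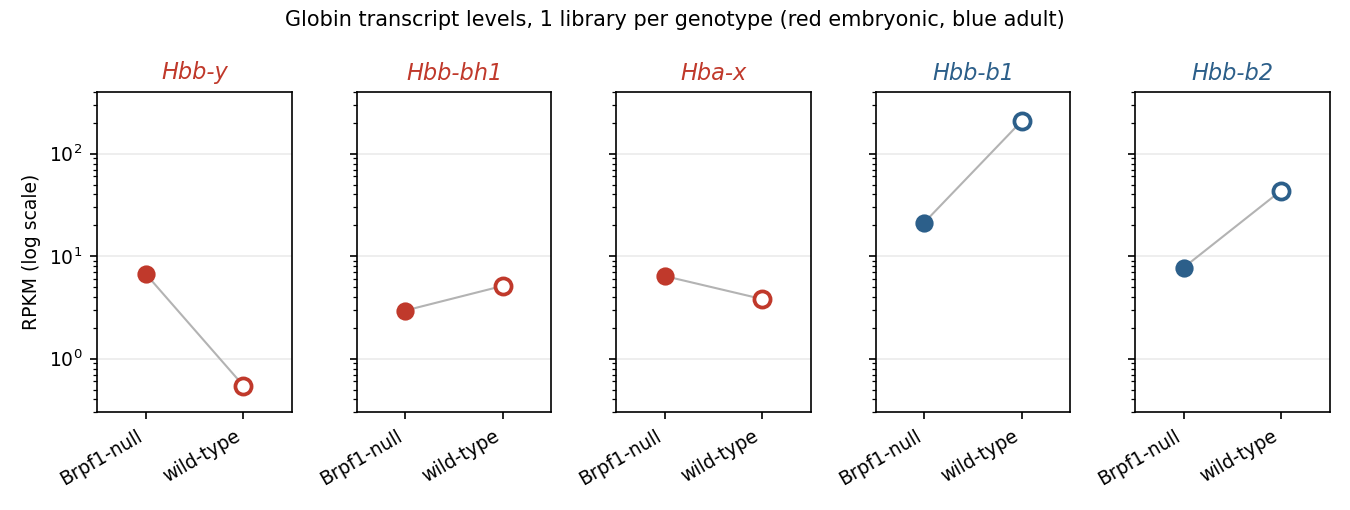
RPKM on a log axis for the 5 globin genes above 0, in the Brpf1-null library (filled) and the wild-type library (open), 1 library per genotype, with embryonic genes in red and adult genes in blue. Hbb-y and Hba-x lie higher in Brpf1-null, and Hbb-bh1, Hbb-b1 and Hbb-b2 lie higher in wild-type.

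The make-up of the beta-like globin transcripts differed between the libraries as well as their amount. Summed over Hbb-y, Hbb-bh1, Hbb-b1 and Hbb-b2, the level was 38.6 RPKM in the Brpf1-null library and 257 RPKM in the wild-type library, 6.65-fold lower in Brpf1-null. The adult sum was 29.0 RPKM in Brpf1-null and 251 RPKM in wild-type, and the embryonic sum 9.64 RPKM in Brpf1-null and 5.67 RPKM in wild-type. Embryonic transcripts made up 24.9% of beta-like RPKM in the Brpf1-null library and 2.21% in the wild-type library. Counted in estimated reads, the share was 24.9% (exact interval 21.3% to 28.7%, 134 embryonic and 405 adult reads) in Brpf1-null and 2.15% (1.72% to 2.67%, 82 embryonic and 3727 adult reads) in wild-type. A share within a library does not depend on how the libraries are scaled to each other. It does depend on how fully the adult reads were counted. Of the windows of Hbb-bs, 65.8% recur in Hbb-bt, and 58.3% of those of Hbb-bt recur in Hbb-bs. For Hba-a1 and Hba-a2, both listed at 0, these shares were 67.5% and 86.9%. That alpha pair was identical at 99.8% of aligned bases, against 93.1% for Hbb-bs and Hbb-bt. Hbb-b1 and Hbb-b2 were listed above 0 in both libraries. Hbb-y and Hbb-bh1 shared 0 windows with Hbb-bs or Hbb-bt. Loss of adult reads would raise the embryonic share, and the exact intervals do not cover it. Whether such reads were lost was not tested. Most of the embryonic share in Brpf1-null was Hbb-y (17.3% of beta-like RPKM, with Hbb-bh1 at 7.63%), while in wild-type it was Hbb-bh1 (1.99%, with Hbb-y at 0.212%). The adult gene still led in both libraries: Hbb-b1 exceeded Hbb-y 3.18-fold in Brpf1-null and 380-fold in wild-type.

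**Figure D2:**
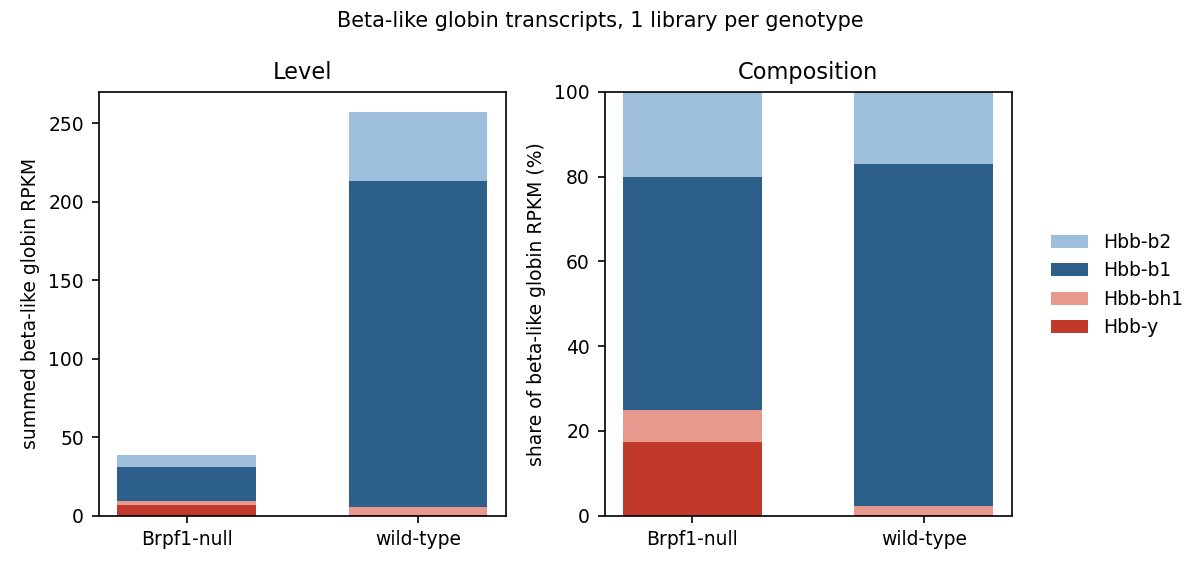
Beta-like globin transcripts in the Brpf1-null and wild-type libraries as stacked bars, in summed RPKM (left) and as a percentage of that sum (right), 1 library per genotype. The Brpf1-null bar is 38.6 RPKM tall with 24.9% embryonic transcripts (red), and the wild-type bar 257 RPKM tall with 2.21%.

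The adult alpha-globin genes gave no measurement. Hba-a1 and Hba-a2, which encode the alpha chain of definitive hemoglobin, were each listed at 0 in the Brpf1-null library and in the wild-type library. They are near-identical copies: their annotated transcripts matched at 537 of 538 aligned bases, and their upstream sequences at 247 of 247. Of 50-base windows, 67.5% of Hba-a1 and 86.9% of Hba-a2 occurred in the other gene. Zeros were frequent among genes of this kind: of 1278 genes sharing 10% to under 90% of their windows with another gene, 808 (63.2%) were listed at 0 in both libraries, as were 98 of 133 genes (73.7%) sharing at least 90%, against 4011 of 15733 (25.5%) sharing less than 10%. These groups also hold families restricted to other tissues, whose part in the zeros was not tested. The zeros of Hba-a1 and Hba-a2 are therefore given as listed values and not as absence, and no embryonic share of alpha-like transcripts was computed. The other globin family genes in the tables lay below the filter. Hbq1, a theta-like gene of the alpha cluster, was listed at 0 in Brpf1-null and at 0.28 RPKM in wild-type. The neuronal globin gene Ngb was at 0.0557 RPKM in Brpf1-null and listed at 0 in wild-type, and Mb (myoglobin) and Cygb (cytoglobin) were listed at 0 in both.

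Against all genes, the adult beta genes and Hbb-y lay at the extremes. Changes were taken as log2 of Brpf1-null over wild-type after adding 1 RPKM to each, over the 9380 genes whose mean reached 1 RPKM. Of those genes, 14.1% were at least 1.5-fold higher in Brpf1-null and 9.42% at least 1.5-fold lower (1323 and 884 genes, or 961 and 1204 once each library was centred on its median). Of the 5 globin genes that passed the filter, 2 were higher (Hbb-y and Hba-x) and 3 lower (Hbb-b1, Hbb-b2 and Hbb-bh1) by that much. The log2 change was −3.23 for Hbb-b1, with 4 measured genes below it, and −2.35 for Hbb-b2, with 20 below it. It was 2.31 for Hbb-y, with 5 measured genes above it. Hba-x (0.62) and Hbb-bh1 (−0.63) lay close to the threshold of 0.58, and 1205 genes lay above Hba-x and 764 below Hbb-bh1. After that centring, which moved the median of all genes from 0.04 to −0.07, Hba-x was at 0.51 and no longer past 1.5-fold. After removal of a trend with GC content, Hba-x was at 0.44 and Hbb-bh1 at −0.57, both within 1.5-fold.

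**Figure D3:**
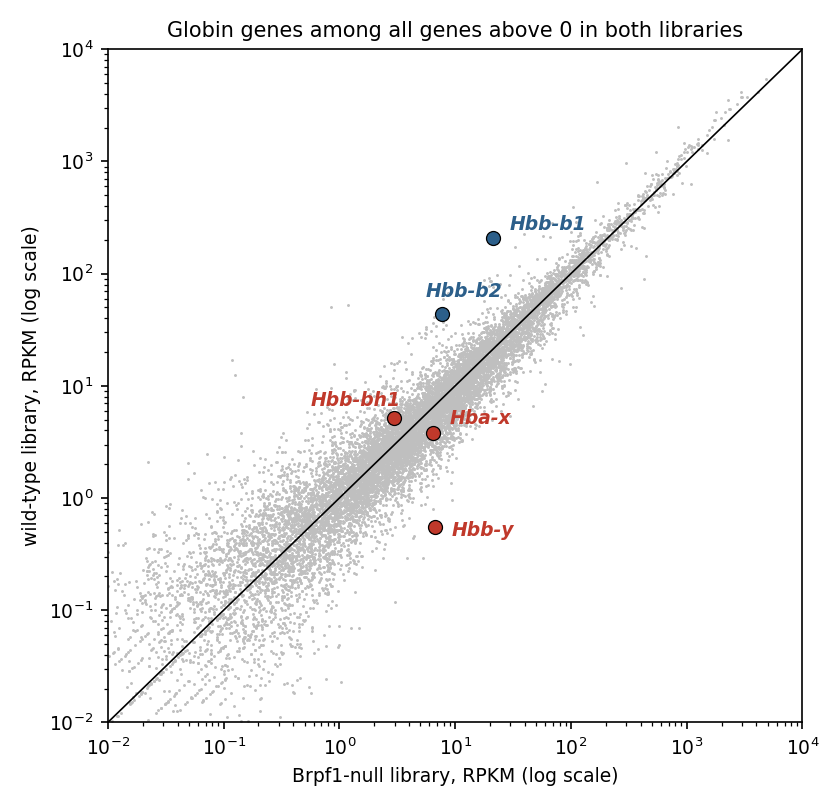
RPKM in the Brpf1-null library (horizontal) and the wild-type library (vertical), both on log axes from 0.01, for the 12624 genes above 0 in both (57 lie below the axis range), with the diagonal at equal levels. Hbb-b1 and Hbb-b2 (blue) lie far above the diagonal and Hbb-y (red) far below it, with Hbb-bh1 and Hba-x close to it.

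Genes of similar level and change were sought among those whose mean RPKM was within 2-fold of a globin gene's, with the difference in log2 change over the 2 libraries as the measure of likeness. For Hbb-b1, 731 genes were compared, and the nearest were Rhd (a red cell blood group protein, 0.73 away), Blvrb (a biliverdin reductase of heme breakdown, 0.88) and the fibrinogen chain gene Fgb (1.19), each with a smaller change. For Hbb-y, 3547 genes were compared, and the nearest were Glp1 (0.04 away), the sulfhydryl oxidase gene Qsox1 (0.10) and the chemokine gene Ccl5 (0.19).

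Other genes of the red cell program were lower along with the adult beta-globins. Among heme synthesis enzymes and heme carriers, 11 of 16 measured genes were lower by 1.5-fold or more in Brpf1-null and 1 was higher, with a median log2 change of −0.82 beside 0.04 over all measured genes. By the same threshold, 9.42% of all measured genes were lower and 14.1% higher. Alas2, which starts heme synthesis in erythroid cells, was at 8.62 RPKM in Brpf1-null and 67.7 RPKM in wild-type. Hbb-b1 stood in a similar proportion to it in both, at 2.47 times Alas2 in Brpf1-null and 3.07 times in wild-type. The mitochondrial iron importer gene Slc25a37 was at 6.83 RPKM in Brpf1-null and 27.9 RPKM in wild-type. The gene that was higher, Abcb6, a porphyrin transporter gene named after its value was seen, was at 5.69 RPKM in Brpf1-null and 3.19 RPKM in wild-type. The count of higher genes was 0 after centring, quantile normalization and GC correction, with a pseudocount of 5 RPKM and with the filter at 5 RPKM. Alad, an early enzyme of the heme pathway, was at 51.1 RPKM in Brpf1-null and 135 RPKM in wild-type.

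Red cell surface and membrane genes gave the same picture, with 19 of 24 measured genes lower and 0 higher by 1.5-fold and a median log2 change of −1.31. Of all measured genes, 9.42% were lower and 14.1% higher by that much. Rhag, the Rh-associated glycoprotein gene, was at 4.21 RPKM in Brpf1-null and 26.9 RPKM in wild-type, and Rhd at 39.4 RPKM in Brpf1-null and 227 RPKM in wild-type. Darc, the Duffy blood group receptor, was at 0.894 RPKM in Brpf1-null and 15.7 RPKM in wild-type. The changes of the 24 genes, with the added 1 RPKM, ran from −3.14 to 0.35. On that scale Hbb-b1 lay below all of them and Hbb-y above all of them. As ratios without the added 1 RPKM, Darc was lower by more than Hbb-b1: 17.6-fold (11.6 to 28.7) against 9.77-fold (8.67 to 11.0). In bulk RNA, fewer red cell precursors in a sample and less of the red cell transcripts per cell cannot be told apart.

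Among genes known to regulate globin clusters, the erythroid activators Klf1 and Gata1 were lower and 20 of 29 lay within 1.5-fold. Of the 29 measured regulators, 5 were higher and 4 lower, shares near those of all measured genes (14.1% higher and 9.42% lower), and the median log2 change was 0.03 beside 0.04 over all measured genes. With a pseudocount of 5 RPKM, 3 were higher. The others past 1.5-fold, named after their values were seen, were Gfi1b (−0.88) and Mafg (−0.74) among the lower, and Ehmt1 (0.76), Igf2bp1 (0.72) and Mbd3 (0.68) among the higher. Klf1, the activator of the adult beta-globin promoter, was at 2.76 RPKM in Brpf1-null and 10.03 RPKM in wild-type, 3.64-fold lower (2.88 to 4.60). Gata1, the GATA factor of red cell differentiation, was at 6.12 RPKM in Brpf1-null and 16.8 RPKM in wild-type, 2.73-fold lower (2.15 to 3.50). Mafk, a small MAF partner of NFE2, was at 5.65 RPKM in Brpf1-null and 1.83 RPKM in wild-type, 3.10-fold higher (2.51 to 3.83).

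Repressors of embryonic globin genes did not share a direction. Bcl11a, which silences embryonic and fetal globin genes, was at 13.3 RPKM in Brpf1-null and 11.8 RPKM in wild-type, 1.13-fold higher (1.02 to 1.25). Zbtb7a, another silencer of such genes, was at 0.913 RPKM in Brpf1-null and 1.86 RPKM in wild-type, 2.03-fold lower (1.34 to 3.08) without the added 1 RPKM and within 1.5-fold with it (log2 change −0.58). Sox6, which silences Hbb-y in definitive mouse red cells, had a mean below the filter, at 0.0223 RPKM in Brpf1-null and 0.617 RPKM in wild-type, from about 1 and 41 reads, a ratio of 27.7-fold lower with an interval of 6.55 to 1561. Myb, at 23.7 RPKM in Brpf1-null and 25.9 RPKM in wild-type, differed by 1.09-fold. Dnmt1, the maintenance DNA methyltransferase, was at 31.7 RPKM in Brpf1-null and 16.4 RPKM in wild-type, 1.93-fold higher (1.83 to 2.04). The nuclear receptor genes Nr2c1 and Nr2c2, whose products bind repeats of the TGACC half-site in embryonic globin promoters, were named after their values were seen. Nr2c1 was at 1.61 RPKM in Brpf1-null and 2.45 RPKM in wild-type, 1.52-fold lower (1.16 to 2.03) without the added 1 RPKM. With the added 1 RPKM, Nr2c1 was within 1.5-fold (log2 change −0.40). Nr2c2 was at 1.13 RPKM in Brpf1-null and 1.24 RPKM in wild-type, with the interval of its ratio (0.617 to 1.33) including no difference.

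**Figure D4:**
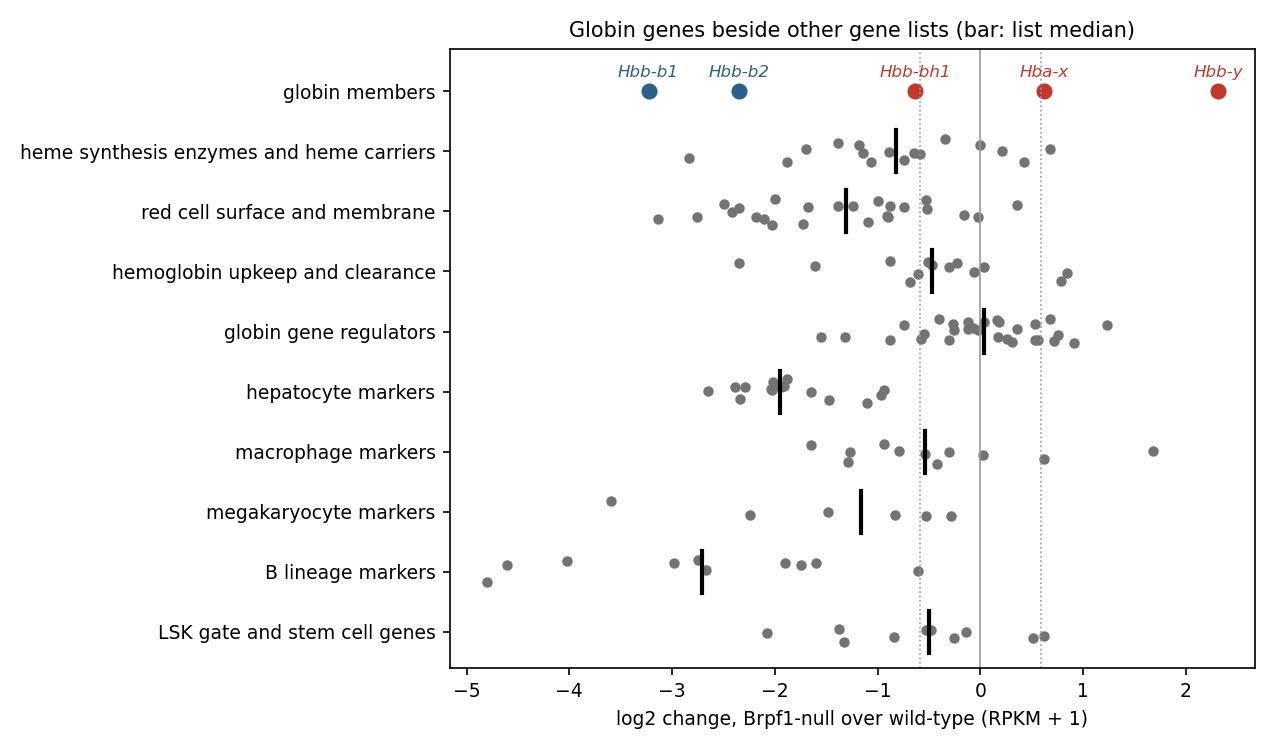
Log2 change (Brpf1-null over wild-type, RPKM + 1) of the measured genes of each list, 1 library per genotype, with globin genes named at the top (embryonic red, adult blue), black bars at list medians and dotted lines at 1.5-fold. Hbb-b1 (−3.23) and Hbb-y (2.31) lie outside the range of the red cell surface list (−3.14 to 0.35), and all 16 measured hepatocyte genes lie below the lower dotted line.

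Markers of cells outside the LSK gate moved in the same libraries. All 16 measured hepatocyte genes were lower by 1.5-fold or more in Brpf1-null, with a median log2 change of −1.95, and the list's summed level was 579 RPKM in Brpf1-null and 2218 RPKM in wild-type. Over all measured genes, the shares to set beside this count and those that follow were 9.42% lower and 14.1% higher. Serpina1e, a liver antitrypsin gene, was at 3.50 RPKM in Brpf1-null and 27.2 RPKM in wild-type. Of 11 measured macrophage genes, 5 were lower (Slc40a1, Vcam1, Timd4 and, named after their values were seen, C1qa and Cd5l) and 2 higher (Csf1r and, likewise, Cd68). The 2 higher genes are near the share of all genes. The list's summed level was 208 RPKM in Brpf1-null and 201 RPKM in wild-type. Its largest part was Lyz2, named after its values were seen, at 106 RPKM in Brpf1-null and 104 RPKM in wild-type. These macrophage counts moved with the settings: 1 was lower with a pseudocount of 5 RPKM or the filter at 5 RPKM, and 1 was higher with that pseudocount, after centring or after GC correction. Timd4, a gene of resident macrophages, was at 0.496 RPKM in Brpf1-null and 2.60 RPKM in wild-type, and Csf1r, the CSF1 receptor gene, at 28.8 RPKM in Brpf1-null and 8.31 RPKM in wild-type. Megakaryocyte genes were lower in 4 of 6 measured members (Ppbp, Pf4, Clec1b and Gp1ba) and higher in 0, and genes of the B lineage lower in 10 of 10. With the filter at 5 RPKM the counts of lower genes were 2 for megakaryocytes (also 2 with a pseudocount of 5 RPKM) and 6 for the B lineage. The part of these other cell types in the globin differences was not tested.

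Among LSK gate and stem cell genes, 4 of 10 were lower (Hoxa9, Mecom, Meis1 and Hlf) and 1 higher (Cd34, named after its value was seen), beside 9.42% lower and 14.1% higher over all measured genes. After centring 6 were lower and 0 higher, and with the filter at 5 RPKM 2 were lower. Kit was at 21.3 RPKM in Brpf1-null and 25.6 RPKM in wild-type, and Ly6a, which encodes Sca-1, at 9.51 RPKM in Brpf1-null and 10.6 RPKM in wild-type, so that both genes of the gate were detected (both named after their values were seen). Brpf1 itself was at 2.15 RPKM in Brpf1-null and 2.59 RPKM in wild-type, 1.20-fold lower with an interval that includes no difference (0.998 to 1.44). A value over the whole transcript cannot show a deletion of part of it, which limits this check of the genotype labels. The libraries held about 22220000 reads in Brpf1-null and 23600000 in wild-type, as estimated from the steps between low values. Genes above 0 numbered 13269 in Brpf1-null and 13583 in wild-type.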

How the data were processed

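LSK cells of Brpf1-null and wild-type E14.5 fetal livers were profiled by oligo-dT-primed RNA sequencing, 2 samples per genotype, grouped by their titles. Per the labels' protocols, about 10000 cells were sorted and cells from 4 embryos pooled per sample, with pair 1 run on 2 lanes and pair 2 on 6. Reads were aligned with TopHat to mm9, per the submitters' processing notes. No source used here names the counting program, annotation or filters. The authors deposited values as RPKM for pair 1 and as FPKM for pair 2, per the file headers, and all 20207 gene rows were equal between these tables. The authors' deposited ratio of wild-type over Brpf1-null and its deposited log2 stand beside them. All 12624 ratios matched the values within 0.001 (relative) and were not used further.

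Changes are log2((Brpf1-null + 1)/(wild-type + 1)) RPKM, which understates changes of low genes, over genes whose mean reached 1 RPKM. Folds in the text are ratios without the added 1. Library sizes are those at which most values of genes with a single GENCODE M21 transcript gave whole reads within 0.1 read (58.8% of 476 values in Brpf1-null and 56.3% of 484 in wild-type, against 24.4% and 26.2% with sizes raised by 5%). Read numbers use the median transcript length and are approximate. The recovery of sizes and changes was tested on simulated data. GENCODE and RefSeq are of GRCm38, not mm9, and served for lengths, GC content, names and sequences. Python 3.11.15, scipy 1.17.1, statsmodels 0.14.6 and Biopython 1.88 were used. The members and gene lists were chosen with earlier results of these data known. Genes named were all globin genes, Brpf1, up to 4 of the largest changes per list, a few fixed regulators, and 3 genes nearest in change to Hbb-b1 and Hbb-y; some of these are not reported here. Alternatives covered the pseudocount, the filter, centring, quantile normalization, GC content and the fold threshold.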

Additional observations from a re-analysis of the deposited data

How the results depend on the processing

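No paired analysis was possible because the 2 tables hold the same values, so leaving out a replicate was not possible either. Under the alternatives that gave them a value, Hbb-y, Hbb-b1 and Hbb-b2 kept their direction and stayed past 1.5-fold; with a pseudocount of 5 RPKM their log2 changes were 1.08, −3.02 and −1.93. Hba-x and Hbb-bh1 kept their direction but not always their side of 1.5-fold: Hba-x was within it after centring (0.51), quantile normalization (0.52), GC correction (0.44) and with a pseudocount of 5 RPKM (0.37), and Hbb-bh1 after GC correction (−0.57) and with that pseudocount (−0.35). The number of globin genes higher in Brpf1-null was accordingly 1 and not 2 with a pseudocount of 5 RPKM, a filter at a mean of 5 RPKM (which removed Hbb-y and Hbb-bh1), centring, quantile normalization, GC correction and a threshold of 2-fold. The number lower was 0 after GC correction, because Hbb-b1 and Hbb-b2 have no GC content in the annotation and were left out. Over all genes, 554 were higher and 393 lower with a pseudocount of 5 RPKM, 793 and 483 with the filter at 5 RPKM, and 388 and 325 at 2-fold, against 1323 and 884. The share of higher genes among those past 1.5-fold moved with scaling: 961 were higher and 1204 lower after centring, 1130 and 1034 after quantile normalization. With Hbb-b1 as the only adult beta gene, the embryonic share was 31.2% in Brpf1-null and 2.66% in wild-type. Of the recomputed counts for the other gene lists, 17 moved by more than 1.5 times and 109 did not. Those that moved were counts of the regulator, heme, macrophage, megakaryocyte, B lineage and LSK lists; the other counts are given beside those lists, and 1 megakaryocyte gene was higher with no filter. Centring moved the median log2 change of all genes from 0.04 to −0.07. The low read number of Hbb-y in wild-type (about 8) sets the width of its interval, and a single library per genotype limits every value.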

Other observations

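Genes that keep hemoglobin in working order or clear it included members past 1.5-fold in each direction. Of 13 measured genes, 5 were at least 1.5-fold lower in Brpf1-null, 2 higher and 6 within 1.5-fold, with a median log2 change of −0.47. Over all measured genes 9.42% were lower and 14.1% higher, with a median of 0.04, so that the 2 higher genes are near the share of all genes. Blvrb, a biliverdin reductase abundant in red cells, was at 32.9 RPKM in Brpf1-null and 172 RPKM in wild-type, 5.23-fold lower (4.81 to 5.70). Prdx2, a peroxiredoxin that protects red cells from peroxide, was at 432 RPKM in Brpf1-null and 795 RPKM in wild-type. Hpx, the heme-binding plasma protein hemopexin made in the liver, was at 1.98 RPKM in Brpf1-null and 8.08 RPKM in wild-type. Cyb5r3, whose product returns methemoglobin to its working form, was at 45.9 RPKM in Brpf1-null and 25.2 RPKM in wild-type, 1.82-fold higher (1.71 to 1.94). The other genes past 1.5-fold, named after their values were seen, were Cat (catalase) and Gpx1 (glutathione peroxidase) among the lower and Hp (haptoglobin, which binds free hemoglobin) among the higher. Eif2ak1, the heme-regulated kinase that matches globin translation to heme supply, was at 9.90 RPKM in Brpf1-null and 11.8 RPKM in wild-type, and was named after its values were seen.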
